A study of Mus musculus with 48 samples.

Results

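Small RNA was compared between 4 superior cervical ganglion (SCG) samples taken 7 d after an injection of lipopolysaccharide (LPS) and 4 taken 7 d after saline. These 8 libraries are all those of 48 in the series that carry the ganglion, time and treatment labels of this comparison, and no measured value was used to choose them. The LPS mice were Balb/c animals aged 2.5 months given LPS of Escherichia coli O55:B5 into the peritoneum, 2.5 mg/kg dissolved in a saline volume of 0.2 mL. The saline mice had the same strain and age and received 0.2 mL saline without LPS. Each group held 2 female (replicates 1 and 2) and 2 male libraries (replicates 3 and 4), each from both SCG of 1 mouse. The model is a single systemic dose in 1 inbred strain, and the whole ganglion was extracted, so the values mix neurons, glia, vessels, connective tissue and leukocytes. In such bulk samples, fewer cells of a type and less RNA per cell cannot be told apart.

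The SCG is the uppermost sympathetic ganglion and innervates the head and neck. LPS activates Toll-like receptor 4 and through it the transcription factor NF-kB. Among the microRNAs (miRNAs) induced by this pathway, miR-155-5p is known to favour inflammatory signalling in macrophages and lymphocytes, whereas miR-146a-5p and miR-146b-5p repress the adaptor proteins IRAK1 and TRAF6 and so damp the same pathway. miR-21a-5p is abundant in many tissues and is known to be raised in inflammation and in injured nerve. A miRNA finds its targets mainly through its seed, bases 2 to 8 from the 5′ end, so miRNAs with one seed share many targets. Fragments of mature tRNAs (tRFs), such as the fragments released by cleavage in the anticodon loop, are a second class of small RNA that is known to respond to stress.

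The mature sequences of the 3 miRNAs that passed the test at 7 d are shown with that of miR-146b-5p, which shares a seed with one of them. They were taken from RefSeq (build GRCm38.p6) and are written 5′ to 3′ with the seed in capitals.
miR-146a-5p: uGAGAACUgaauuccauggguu
miR-146b-5p: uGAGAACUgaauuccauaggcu
miR-155-5p: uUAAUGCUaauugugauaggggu
miR-21a-5p: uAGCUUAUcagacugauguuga
miR-146a-5p and miR-146b-5p had the same seed, and with positions counted from the 5′ end the second differs from the first by G18A and U21C. In that build miR-146a-5p lay at chr11:43374435-43374456 on the minus strand, in an exon of its own small gene. miR-155-5p lay at chr16:84714143-84714165 on the plus strand, in an exon of its host transcript Mir155hg. miR-21a-5p lay at chr11:86584120-86584141 on the minus strand, in an annotated exon of Vmp1. The submitters' processing notes name the build GRCm39, so these positions belong to the reference table and not to the count files.

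The 8 libraries held 1774047 to 4408869 miRNA counts (median 2807713) and 74289 to 690645 tRF counts. Levels are given in CPM (counts scaled to 1e6 per library), with edgeR's TMM factors computed over the 24 SCG libraries. One library stood apart from the other 7. Pearson's r of log2 CPM was 0.727 to 0.778 in the 7 pairs that held LPS replicate 2 and 0.965 to 0.990 in the other 21 pairs. Of 237 miRNAs at 100 CPM or more in LPS replicate 2 or in the median of the other 7 libraries, 30 were at least 10 times that median and 57 were at or under 0.1 times.

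Epithelial, muscle and leukocyte miRNAs were high in LPS replicate 2, and most neuronal ones were low. The miR-200 family, which marks epithelia, has 2 seeds, and members of both were high in this library.
miR-200a-3p: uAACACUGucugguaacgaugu
miR-141-3p: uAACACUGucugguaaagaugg
miR-200b-3p: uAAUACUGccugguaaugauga
miR-200c-3p: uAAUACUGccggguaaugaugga
miR-429-3p: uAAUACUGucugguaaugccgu
miR-200a-3p had 27.0, 2815, 15.5 and 2.53 CPM in LPS replicates 1 to 4, against 13, 7.96, 7.55 and 3.13 CPM in saline replicates 1 to 4. Replicate 2 was thus 354 times the median of the other 7 libraries, and the ratio was 373 for miR-141-3p, 280 for miR-200b-3p, 301 for miR-200c-3p and 198 for miR-429-3p. miR-205-5p, a miRNA of stratified epithelium, was at 1282 CPM in LPS replicate 2 and at no more than 0.839 CPM in the other 7 libraries. The skeletal muscle miR-206-3p was at 1039 CPM (161 times the median of the others) and miR-1a-3p at 38798 CPM (72.6 times). The leukocyte miR-142a-3p was at 3756 CPM (49.5 times). In the 16 SCG libraries of the other times the epithelium list reached 13793 CPM and the muscle list 100900 CPM, whereas the leukocyte list reached 1070 CPM, against 11354 CPM in LPS replicate 2.

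At the other end, 10 of the 32 neuron arms in the table were at 0 in LPS replicate 2, 2 of which were at 0 in all 8 libraries. miR-218-5p, known from motor neurons, had 28613, 337, 33364 and 34764 CPM in the LPS libraries and 33173, 34384, 34961 and 34104 CPM in the saline libraries. miR-7b-5p had 68.0 CPM in LPS replicate 2 and 9451 to 12098 CPM in the others. The sister miR-7a-5p, with the same seed, had 6855 CPM there and 33619 to 40067 CPM in the others. The miR-128 arms went the other way, and miR-128-3p, which lymphocytes also express, had 40706 CPM in LPS replicate 2 and 1945 to 6333 CPM in the other 7 libraries. It made up most of the 48445 CPM to which the neuron list summed in that library, 0.488 times the median of the others. The Dlk1-Dio3 cluster, an imprinted miRNA cluster that is rich in neurons, summed to 54860, 3348, 63759 and 62069 CPM in the LPS libraries and to 68578, 63915, 70173 and 65894 CPM in the saline libraries. Its miR-758-3p had 0 counts in LPS replicate 2 and 331 to 669 counts in the others. miR-10a, miR-10b and the other Hox cluster miRNAs, which mark position along the body, moved little, with 14912 CPM in LPS replicate 2 and 17271 to 17872 CPM in the others. The label of LPS replicate 2 is kept here. The tests of LPS against saline are given with and without it, and values given only without it, such as those against TG, are marked as such. The cause of its makeup was not tested.

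**Figure D1:**
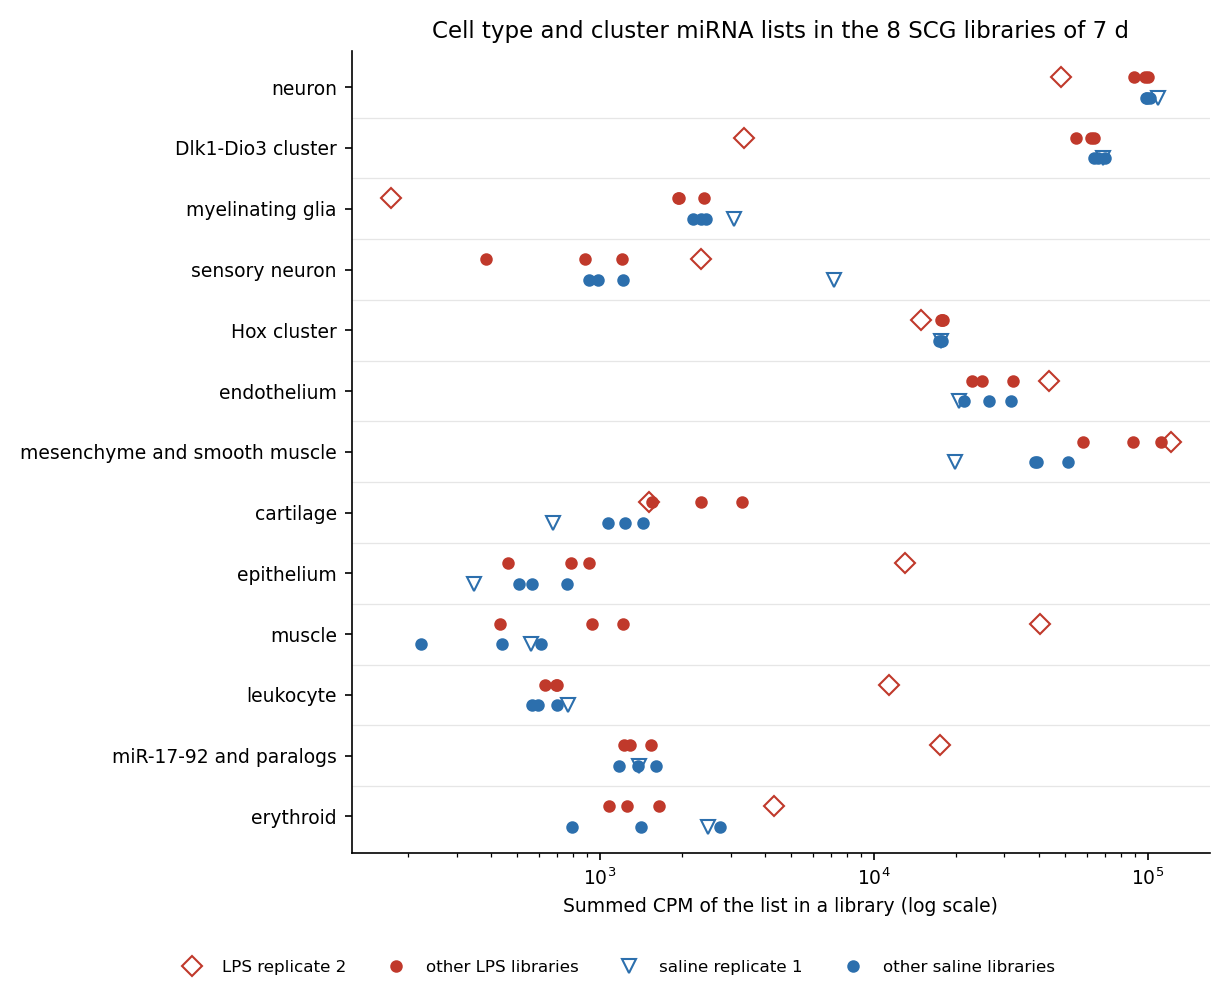
Each point is the summed level of a miRNA list in 1 library (CPM, log axis), with the LPS libraries (red) above the saline libraries (blue) in each row, LPS replicate 2 as an open diamond and saline replicate 1 as an open triangle. LPS replicate 2 lies far right in the epithelium (13022 CPM), muscle (40458 CPM), leukocyte (11354 CPM) and miR-17-92 rows (17521 CPM). It lies far left in the Dlk1-Dio3 and glia rows, and the neuron row is less shifted (48445 CPM). All LPS libraries lie above all saline libraries in the mesenchyme row and, narrowly, in the cartilage row. They lie narrowly below all saline libraries in the Dlk1-Dio3 row.

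The neuronal miRNAs of the labelled tissue were abundant in the other 7 libraries and summed to 88812, 100170 and 97429 CPM in LPS replicates 1, 3 and 4 and to 98458 to 109320 CPM in the saline libraries. Saline replicate 1 stood apart in fewer lists. The miR-183 cluster of sensory neurons summed to 7147 CPM there, against 911 to 1212 CPM in the other saline libraries and 1204, 2336, 385 and 880 CPM in the LPS libraries. Pancreas-type exocrine miRNAs summed to 69.2 CPM in saline replicate 1 and to at most 12.3 CPM in the other 7 libraries. In the 16 SCG libraries of the other times these lists ran up to 22185 and 294.9 CPM, so saline replicate 1 lay within their range.

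Of 506 miRNAs tested with edgeR's quasi-likelihood F-test in a joint fit of the 24 SCG libraries, 3 rose and 0 fell at an adjusted p under 0.05, which is 0.593% of those tested, and 103 (20.4%) had an unadjusted p under 0.05. Without LPS replicate 2, 3 of 514 rose and 0 fell (0.584%), and 49 (9.53%) had an unadjusted p under 0.05. miR-146a-5p, miR-21a-5p and miR-155-5p were the 3 in both fits. For each of them every LPS library was above every saline library, as for 34 of the 506 miRNAs (6.72%). Leaving out LPS replicate 1, 3 or 4 in place of replicate 2 gave 32, 29 and 13 calls, and a fit of the 8 libraries alone called 0 of 449, with edgeR adjusted p of 0.126 (miR-146a-5p) and 0.523 (miR-155-5p, miR-21a-5p). The same fit of the 7 libraries without replicate 2 called 3.

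miR-146a-5p, the repressor of IRAK1 and TRAF6, had 4185, 8617, 8091 and 9310 CPM in the LPS libraries, against 1132, 1350, 2568 and 1487 CPM in the saline libraries. The means were 7551 ± 2299 CPM after LPS and 1634 ± 640 CPM after saline (SD, n = 4 each), and the groups did not overlap. The log2 fold change was 2.22 ± 0.31 (SE; edgeR adjusted p = 0.000421) and 2.12 ± 0.33 without LPS replicate 2 (adjusted p = 0.00145), the largest of the 3 in that fit. For this miRNA replicate 2 lay among the other LPS libraries and replicate 1 was the lowest. These levels rest on 17990 to 27116 counts per LPS library and on 2697 to 4761 per saline library.

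miR-21a-5p had 11715, 37931, 14557 and 16225 CPM in the LPS libraries, against 5005, 5663, 5101 and 5792 CPM in the saline libraries. The saline libraries lay close together (5390 ± 395 CPM, SD, n = 4), and the lowest LPS library was above all of them. The log2 fold change was 1.89 ± 0.31 (edgeR adjusted p = 0.00131) and 1.40 ± 0.24 without LPS replicate 2 (adjusted p = 0.00145), whose level was 6.55 times the median of the other 7 libraries.

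miR-155-5p, the pro-inflammatory member, had 50, 190, 67.4 and 77.3 CPM in the LPS libraries, against 14.7, 20.9, 21 and 21.5 CPM in the saline libraries. It was the least abundant of the 3, with 214 to 512 counts per LPS library and 35 to 71 per saline library. The log2 fold change was 2.28 ± 0.38 (edgeR adjusted p = 0.00131) and 1.74 ± 0.29 without LPS replicate 2 (adjusted p = 0.00145). LPS replicate 2, in which the leukocyte list was 16.4 times the median of the other 7 libraries, held the highest miR-155-5p and miR-21a-5p of the 8. The part of leukocyte number in that library's levels was not tested. In LPS replicates 1, 3 and 4 the leukocyte list summed to 694, 631 and 699 CPM, against 765, 697, 564 and 596 CPM in the saline libraries. Its members differed in direction. With all 8 libraries, 3 of its 9 tested arms were higher after LPS without overlap, against 6.72% of all tested miRNAs. Only miR-342-5p was lower without overlap, against 4.74%. The higher miR-142a-5p had 246, 217 and 207 CPM in LPS replicates 1, 3 and 4, against 192, 178, 161 and 181 CPM after saline. No arm of the list was called, and these shares describe the list without testing it.

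**Figure D2:**
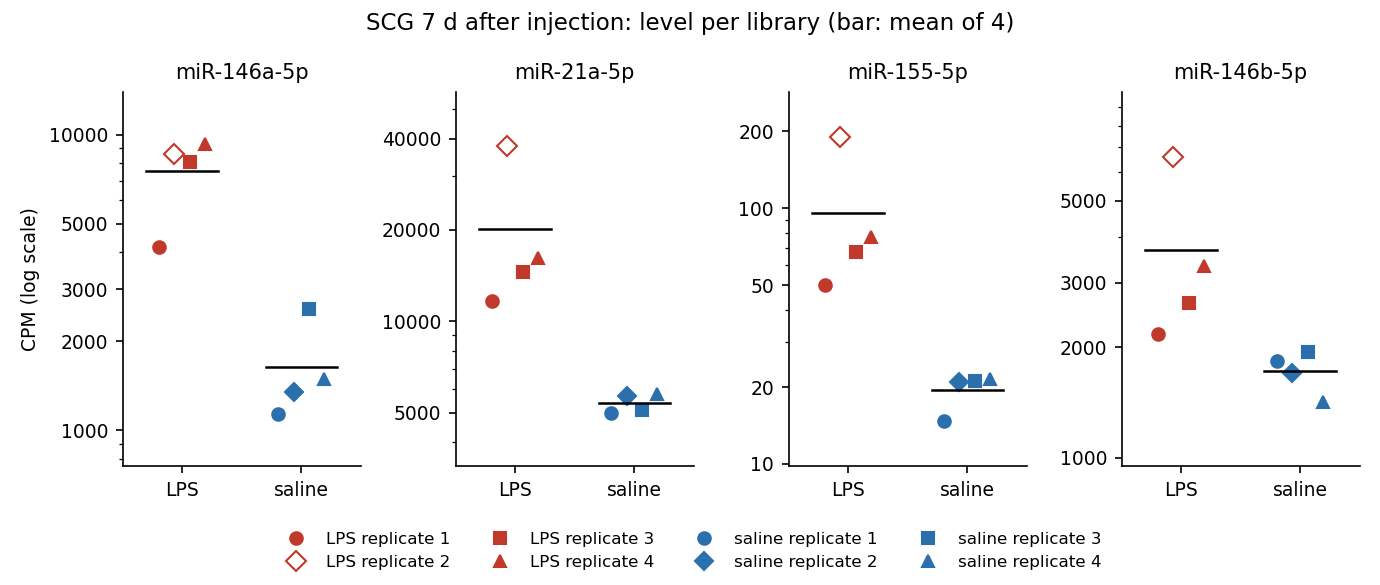
Level in each library (CPM, log axis) of the 3 miRNAs that rose and of miR-146b-5p, with LPS (red) left of saline (blue), the bar at the mean of 4 libraries and LPS replicate 2 as an open diamond. In all 4 panels every LPS library lies above every saline library; replicate 2 is the highest LPS library for miR-21a-5p, miR-155-5p and miR-146b-5p but not for miR-146a-5p.

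The seed partner miR-146b-5p had 2172, 6597, 2637 and 3334 CPM in the LPS libraries, against 1836, 1707, 1936 and 1423 CPM in the saline libraries. The groups did not overlap, but the log2 fold change of 1.08 did not pass the test (edgeR adjusted p = 0.113), and without LPS replicate 2 it was 0.69 ± 0.25 (adjusted p = 0.458). With LPS replicate 2 kept, it was called by DESeq2 (adjusted p = 0.0165) and by edgeR with no filter on low counts (0.0355) or without LPS replicate 1 (0.0226) or 3 (0.0471). Without LPS replicate 2 edgeR with no filter also called it (adjusted p = 0.0217). Passenger arms were rare in every library. miR-146a-3p had 0, 0, 3 and 2 counts in the LPS libraries and 0 in each saline library, and miR-155-3p had 2, 5, 2 and 1 counts against 0, 0, 0 and 1.

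The list of miRNAs induced by NF-kB or LPS held 11 tested arms, of which 3 rose and 0 fell; 9 had a positive log2 fold change, and the median was 0.78, against -0.05 over all 506 miRNAs. Without LPS replicate 2, 12 arms were tested, 3 rose, 10 were positive and the median was 0.70, against 0.00551 over 514. In 6 of the 11 every LPS library was above every saline library, against 6.72% of all tested miRNAs. The 3 called miRNAs were among these 6. All 20 lists were chosen with earlier results of these data known, so such shares describe a list and do not test it. The miR-221 and miR-222 pair is encoded in 1 cluster on the X chromosome, shares a seed and is known to promote proliferation.
miR-221-3p: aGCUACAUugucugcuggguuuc
miR-222-3p: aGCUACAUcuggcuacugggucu
miR-221-3p had 228, 285, 197 and 177 CPM in the LPS libraries and 83.9, 127, 136 and 149 CPM in the saline libraries, with no overlap and a log2 fold change of 0.83 that did not pass (edgeR adjusted p = 0.161; 0.72, adjusted p = 0.489, without LPS replicate 2). miR-222-3p had 404, 551, 354 and 440 CPM in the LPS libraries and 337, 388, 270 and 284 CPM in the saline libraries, and these overlapped. miR-132 and miR-212, which CREB and neuronal activity induce, did not pass the test. The negative members of the list were miR-132-5p (log2 fold change -0.36) and miR-212-5p (-0.42), with edgeR adjusted p of 0.590 and 0.593.

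The effect at 7 d was set against the effect at 24 h in the same fit, in which each time has its own saline libraries. Without LPS replicate 2, miR-155-5p had a log2 fold change of 3.08 at 24 h and 1.74 at 7 d, and miR-21a-5p had 2.15 and 1.40. miR-146a-5p ran the other way, with 1.31 at 24 h and 2.12 at 7 d. No difference between the times passed the test in edgeR: 0 of 514 miRNAs were called (0%), 21 (4.09%) had an unadjusted p under 0.05, and DESeq2 called 0 as well (with LPS replicate 2, 0 of 506 and 27 unadjusted, 5.34%). The differences, 7 d minus 24 h, were -1.35 ± 0.40 for miR-155-5p (edgeR adjusted p = 0.471), -0.74 ± 0.32 for miR-21a-5p (0.999) and 0.82 ± 0.44 for miR-146a-5p (0.999), without LPS replicate 2. With it they were -0.77, -0.24 and 0.94. With no filter on low counts, 10 miRNAs were called, miR-155-5p among them (-1.32). miR-223-5p and miR-142a-3p of myeloid and other leukocytes, and miR-222-3p, passed the test at 24 h, where 6 of 514 rose and 0 fell (1.17%), with edgeR adjusted p of 0.00507, 0.0445 and 0.0445. These 3 calls were made in the fit without the 7 d LPS replicate 2. In the fit of all 24 SCG libraries the adjusted p were 0.0783, 0.997 and 0.156. At 7 d without LPS replicate 2 their log2 fold changes were 0.12, 0.46 and 0.36, and none passed. The 24 h rise of miR-146a-5p likewise had an edgeR adjusted p of 0.0445 in the fit without that library and of 0.0783 with all 24.

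The same 3 miRNAs were also higher after LPS in the trigeminal ganglion (TG), which holds the sensory neurons of the face, at 7 d, where 5 of 590 miRNAs rose (0.847%) among 32 called (5.42%). In TG the log2 fold change of miR-146a-5p was 1.45, that of miR-155-5p 1.47 and that of miR-21a-5p 0.65 (edgeR adjusted p = 0.000275, 0.00447 and 0.0324). The SCG minus TG differences were 0.70 ± 0.37, 0.28 ± 0.48 and 0.76 ± 0.28, and none passed (edgeR adjusted p = 0.317, 0.835 and 0.180). With no filter on low counts edgeR called the difference of miR-21a-5p (0.795, adjusted p = 0.0271). Of 590 miRNAs in the filtered fit, which leaves out SCG 7 d LPS replicate 2, 17 differed between the ganglia in their LPS effect (2.88%), 14 of them with the SCG effect above the TG effect (2.37%). The number was 2, 2, 29 and 4 when TG 7 d saline replicate 1, 2, 3 or 4 was left out. Values are given here for 5 of the 17, those already named for SCG at 7 d. The neuronal miR-129-2-3p had a log2 fold change of 1.24 in SCG and -1.40 in TG, a difference of 2.65 ± 0.51 (edgeR adjusted p = 0.00399). miR-342-3p had 0.72 in SCG and -0.46 in TG, a difference of 1.18 ± 0.25 (adjusted p = 0.00947). miR-132-3p, which CREB induces, had 0.51 in SCG and -1.39 in TG, a difference of 1.91 ± 0.54 (adjusted p = 0.0418) whose call was lost without TG 7 d saline replicate 1, 2 or 4. The low-abundance miR-3102-3p differed by 1.93 and miR-423-5p by -1.0 (edgeR adjusted p = 0.0418 each), and both calls were lost without TG 7 d saline replicate 1, 2 or 4, with that of miR-3102-3p also lost without replicate 3.

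**Figure D3:**
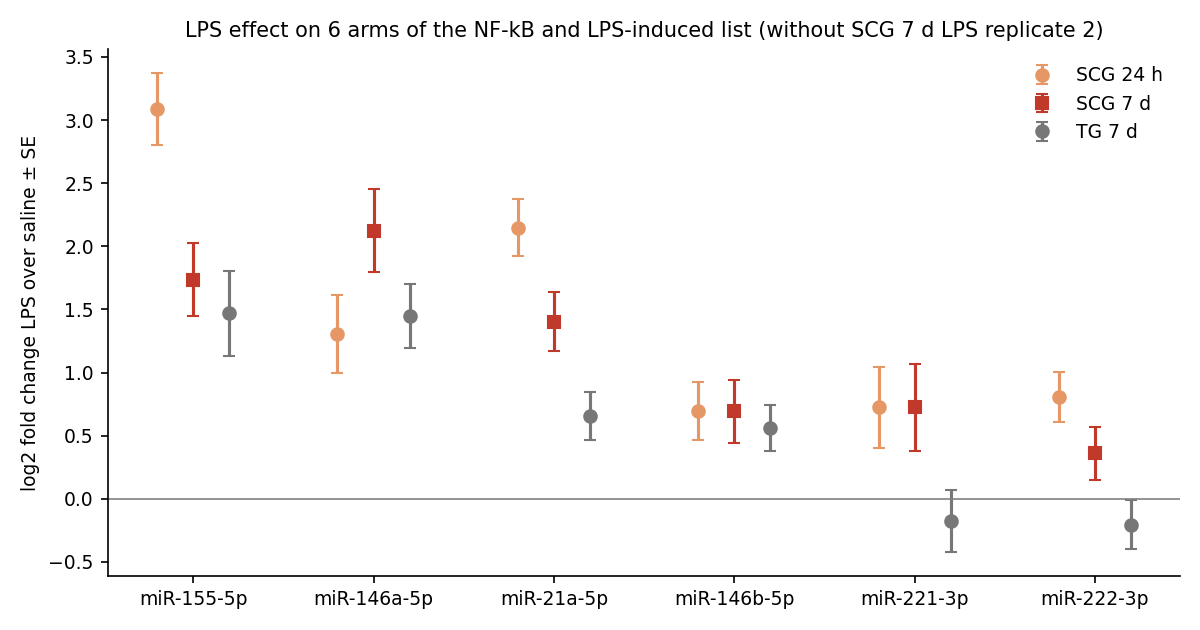
Log2 fold change of LPS over saline (points) with its SE (bars) for 6 arms of the inflammation-induced list, for SCG at 24 h, SCG at 7 d and TG at 7 d, without SCG 7 d LPS replicate 2. miR-155-5p and miR-21a-5p stand higher at 24 h than at 7 d in SCG and miR-146a-5p stands lower. No difference between the times or the ganglia passed the filtered edgeR test for these 6 arms. With no filter on low counts, edgeR called the time difference of miR-155-5p and the ganglion difference of miR-21a-5p.

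The mesenchyme and smooth muscle miRNAs were higher in every LPS library than in every saline library as a sum, yet no single arm passed the test. The list summed to 112180, 121460, 88681 and 58085 CPM in the LPS libraries, against 19799, 51024, 39318 and 38883 CPM in the saline libraries. Most of it was miR-143-3p, a miRNA of smooth muscle and fibroblasts, with 102520, 108010, 80367 and 52138 CPM after LPS and 17915, 46352, 34668 and 33919 CPM after saline. Its log2 fold change was 1.36 (edgeR adjusted p = 0.220) and 1.27 ± 0.71 without LPS replicate 2 (adjusted p = 0.503). The cluster partner miR-145a-5p had 1075, 624, 819 and 613 CPM in the LPS libraries and 86.0, 338, 339 and 362 CPM in the saline libraries (log2 1.49, edgeR adjusted p = 0.209). All 10 tested arms of the list were positive and 6 did not overlap, against 6.72% of all tested miRNAs, with 0 called and a median of 1.2 (0.92 without LPS replicate 2). These values describe the list and do not test it. With no filter on low counts edgeR called miR-143-3p and miR-145a-5p, with all 8 libraries (adjusted p = 6.30e-06 and 0.00151) and without LPS replicate 2. miR-199a-3p and miR-199b-3p are identical in sequence and their values are nearly the same, so they count as 1 measurement. The sum ran from 15912 to 196640 CPM in the 16 SCG libraries of the other times, a range wider than that of the 8 libraries described here. The chondrocyte miR-140-3p moved with it, with 2318, 1181, 1643 and 1037 CPM after LPS and 404, 912, 854 and 681 CPM after saline (log2 1.09, edgeR adjusted p = 0.335). With no filter edgeR called miR-140-3p too, with all 8 libraries (adjusted p = 0.0244) and without LPS replicate 2 (5.65e-08).

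Several other lists moved with LPS replicate 2. All 15 tested arms of the miR-17-92 cluster and its paralogs, known from dividing cells, were positive with all 8 libraries, with a median log2 fold change of 1.86 and 0 called. The list summed to 1543, 17521, 1230 and 1293 CPM in the LPS libraries and to 1385, 1598, 1175 and 1376 CPM in the saline libraries, and without LPS replicate 2 the median was 0.09 with 10 of 15 positive. The leukocyte list went to a median of 0.12 without that library, against 1.56 with it, and the Dlk1-Dio3 list to -0.06 over 77 arms, against -0.49. Without that library 50 of these 77 arms were still negative. The Dlk1-Dio3 sum was lower in every LPS library than in every saline library, although the nearest libraries had 63759 and 63915 CPM. Muscle and epithelium, with 5 tested arms each, had medians of 3.84 and 5.31 with LPS replicate 2, and of 1.28 and 0.62 without it. None of these lists held a called miRNA in either fit.

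**Figure D4:**
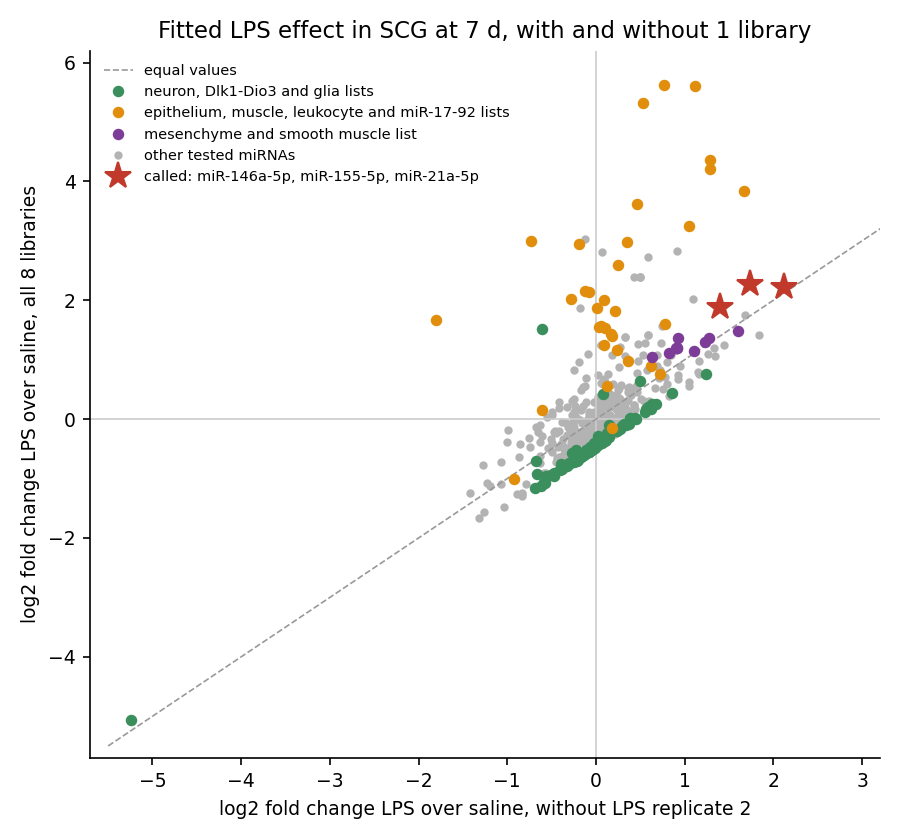
Each point is 1 tested miRNA, with its log2 fold change of LPS over saline without LPS replicate 2 on the horizontal axis and with all 8 libraries on the vertical axis; the dashed line marks equal values and stars mark the 3 miRNAs that rose. Epithelium, muscle, leukocyte and miR-17-92 arms (orange) lie far above the line, the neuron, Dlk1-Dio3 and glia arms (green) mostly in a band just below it, and the stars and the mesenchyme arms (purple) near it or somewhat above.

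No neuronal or glial miRNA passed the edgeR test of the joint fit without LPS replicate 2. There 0 of 22 tested neuron arms and 0 of 4 tested glia arms were called, with medians of -0.14 and -0.20. With no filter on low counts edgeR called miR-129-2-3p (adjusted p = 0.000216) and miR-219a-2-3p (2.56e-27) without that library. DESeq2 also called miR-219a-2-3p (adjusted p = 0.00216). miR-124-3p, the main miRNA of neurons, had 144, 156 and 143 CPM in LPS replicates 1, 3 and 4, against 228, 146, 139 and 135 CPM in the saline libraries (log2 -0.01, edgeR adjusted p = 0.964). miR-9-5p had 8827, 7289 and 8585 CPM in the same 3 LPS libraries and 11855, 9206, 8584 and 10047 CPM in the saline libraries (log2 -0.22, adjusted p = 0.559). miR-338-5p, a miRNA of myelinating cells, had 1413, 1464 and 1778 CPM against 2038, 1708, 1710 and 1828 CPM (log2 -0.21, adjusted p = 0.594). miR-129-2-3p was the neuronal arm with the largest positive value, at 43.5, 46.6 and 96.1 CPM in LPS replicates 1, 3 and 4, against 19.7, 19.5, 39.4 and 28.9 CPM after saline (log2 1.24, adjusted p = 0.362), and it was at 0.372 CPM in LPS replicate 2.

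The largest negative fold change belonged to miR-219a-2-3p, a miRNA of myelinating glia, and it rested on saline replicate 1. It had 10, 6, 1 and 2 counts in the LPS libraries, against 417, 55, 7 and 7 in the saline libraries. With all 8 libraries the log2 fold change was -5.07 ± 1.28 (edgeR adjusted p = 0.0867). The groups did not overlap, as for 4.74% of tested miRNAs with lower values after LPS. DESeq2 (adjusted p = 0.000215) and edgeR with no filter (4.08e-18) or no sex term (0.0440) called it. So did edgeR without LPS replicate 1, saline replicate 3 or saline replicate 4. Without saline replicate 1 it was -2.45 (edgeR adjusted p = 0.405). Without LPS replicate 2 it was -5.24 ± 1.57 (edgeR adjusted p = 0.362), whereas DESeq2 called it (-5.43). With saline replicate 1 left out as well it was -2.70 (edgeR adjusted p = 0.830).

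The 2 arms of the miR-342 precursor had fold changes of opposite sign, neither past the edgeR test.
miR-342-5p: aGGGGUGCuaucugugauugag
miR-342-3p: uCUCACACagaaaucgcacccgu
miR-342-3p, known from lymphocytes and myeloid cells, had 92.4, 128, 84.4 and 135 CPM in the LPS libraries, against 47.4, 58.1, 84.1 and 69.2 CPM in the saline libraries. miR-342-5p had 83, 79.2, 103 and 104 CPM in the LPS libraries, against 274, 175, 148 and 126 CPM in the saline libraries. The groups did not overlap for either arm, as for 6.72% of tested miRNAs with higher and 4.74% with lower values after LPS, although the closest libraries nearly met. The log2 fold changes were 0.76 and -1.0 (edgeR adjusted p = 0.128 each) and 0.72 and -0.92 without LPS replicate 2 (adjusted p = 0.362 and 0.458). DESeq2 called both arms with all 8 libraries (adjusted p = 0.0290 and 0.0356), and edgeR with no filter called miR-342-5p without replicate 2 (0.0145). The 3p arm held 52.7%, 61.8%, 45.1% and 56.7% of the precursor's counts after LPS and 14.7%, 24.9%, 36.3% and 35.5% after saline, a description chosen after the values were seen.

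miR-92b-3p and miR-423-5p were next among the miRNAs with lower values after LPS, neither past the edgeR test of the joint fit. With no filter on low counts edgeR called both without LPS replicate 2 (adjusted p = 0.0169 and 0.0110), and miR-92b-3p also with all 8 libraries (0.0279). miR-92b-3p had 258, 14.9, 229 and 203 CPM in the LPS libraries and 619, 466, 340 and 330 CPM in the saline libraries (log2 -0.84 ± 0.27 without LPS replicate 2, edgeR adjusted p = 0.362). miR-423-5p had 370, 437 and 378 CPM in LPS replicates 1, 3 and 4, 996 CPM in replicate 2, and 1240, 806, 462 and 441 CPM after saline (log2 -0.86 without replicate 2, adjusted p = 0.362). let-7c-5p, of the family of differentiated cells, had 57616, 55199, 64047 and 50336 CPM in the LPS libraries and 109460, 79587, 69951 and 57733 CPM in the saline libraries, so that the highest value was again saline replicate 1 (log2 -0.42 without replicate 2, adjusted p = 0.458).

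The other miRNAs of smallest p without LPS replicate 2 were mostly rare, and none passed the edgeR test of the joint fit. With no filter on low counts edgeR called miR-3102-3p (adjusted p = 0.00617) and miR-8112 (0.0447) without that library. With all 8 libraries DESeq2 called miR-8112 (adjusted p = 0.0254), miR-6516-5p (0.0333) and miR-23b-5p (0.0283). Of those with higher values, miR-3102-3p had 6.51, 3.28 and 8.67 CPM in LPS replicates 1, 3 and 4, against 2.1, 0.885, 1.62 and 2.74 CPM in the saline libraries (log2 1.84, edgeR adjusted p = 0.337). The log2 fold changes of miR-8112, miR-491-5p and miR-376c-3p were 1.69, 1.15 and 0.56 (edgeR adjusted p = 0.362, 0.458 and 0.458). Of those with lower values, miR-760-3p had 69.3, 76.1 and 71.2 CPM in the same LPS libraries, against 124, 99.4, 113 and 85.3 CPM after saline (log2 -0.54, edgeR adjusted p = 0.458). miR-382-5p of the Dlk1-Dio3 cluster had 1996, 2290 and 2083 CPM, against 3085, 2518, 3042 and 2535 CPM (log2 -0.38, edgeR adjusted p = 0.458), and all 3 LPS libraries were below all 4 saline libraries for both. miR-150-3p, the passenger arm of a lymphocyte miRNA, had a log2 fold change of -1.80 without LPS replicate 2 and of 1.68 with it; that library held 54.6 CPM against at most 4.13 CPM elsewhere. The log2 fold changes of miR-6516-5p, miR-8103 and miR-23b-5p were -0.56, -1.2 and -0.79 (edgeR adjusted p = 0.458 each).

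The remaining lists held no called miRNA, and their sums overlapped between the groups. The endothelial list, almost all miR-126a-3p, summed to 32164, 43649, 24880 and 22826 CPM in the LPS libraries and to 20563, 31703, 21447 and 26335 CPM in the saline libraries. The erythroid list, led by miR-451a, summed to 1648, 4314, 1083 and 1261 CPM after LPS and to 2492, 2756, 794 and 1416 CPM after saline. The let-7 family, which marks differentiated cells, summed to 263660, 334300, 280140 and 254450 CPM after LPS and to 332920, 287780, 293210 and 261840 CPM after saline. The miR-181 family summed to 19937 CPM in LPS replicate 2 and to 4453 to 6357 CPM in the other 7 libraries. The p53-linked, hypoxia and liver and gut lists had medians of -0.10, 0.27 and -0.08 without LPS replicate 2, over 5, 1 and 4 tested arms.

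No tRF passed the test. Of 544 tRFs tested with edgeR, 0 were called (0%) and 27 (4.96%) had an unadjusted p under 0.05, and without LPS replicate 2 the counts were 0 of 589 and 24 (4.07%). DESeq2 called 0 in both sets of libraries. The depth was lower than for miRNAs and uneven, at 15.7, 20.7, 7.56 and 3.43 tRF counts per 100 miRNA counts in the LPS libraries and 5.69, 11.4, 8.93 and 3.12 in the saline libraries. This ratio did not differ between the groups beyond the spread of its 4 libraries (exact permutation test, two-sided, p = 0.343; smallest p possible 0.0286), nor without LPS replicate 2 (p = 0.686, smallest possible 0.0571).

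The 5′-half class of the deposited annotation held 46.2%, 67.8%, 61.7% and 72.4% of tRF counts in the LPS libraries and 72.1%, 62.6%, 75.8% and 74.3% in the saline libraries. LPS replicate 1 was the lowest of the 8 and the groups overlapped (exact permutation test, two-sided, p = 0.200, 0.643 adjusted over 5 fragment types). Of the 10 tRFs of smallest p in each direction without LPS replicate 2, the 9 with higher values reported here had log2 fold changes of 0.87 to 2.29, and the 8 with lower values had -2.53 to -0.96, each with an edgeR adjusted p of 0.890.

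The 5′ fragments of tRNA-His with anticodon GTG that start with its G made up 18.8%, 6.10%, 16.0% and 14.4% of tRF counts after LPS and 8.44%, 16.8%, 8.22% and 13.6% after saline. That tRNA is known for an extra G that is added to its 5′ end after transcription. Other fragments of the table match it from the second base on and start with another base, as in the pair shown, with the first base in capitals.
tRF-33-6SXMSL73VL4YDN: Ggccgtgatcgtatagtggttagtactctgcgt
tRF-33-XSXMSL73VL4YDN: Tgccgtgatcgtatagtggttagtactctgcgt
The second differs from the first by G1T, with positions counted from the 5′ end. The form with T had 1174, 541, 1136 and 960 CPM in the LPS libraries and 421, 641, 547 and 389 CPM in the saline libraries (log2 1.01 without LPS replicate 2, edgeR adjusted p = 0.890). Without LPS replicate 2 its groups did not overlap, as for 8 of the 589 tRFs with higher values after LPS (1.36%). The form with G had 41499, 15809, 32706 and 23177 CPM after LPS and 17392, 32072, 23246 and 17937 CPM after saline (log2 0.41, edgeR adjusted p = 0.895). Over all members of 31 to 36 bases, the share that began with T was 3.29%, 4.2%, 3.91% and 3.8% after LPS and 2.47%, 2.81%, 3.08% and 3.25% after saline. These did not overlap, although the nearest libraries were 3.29% and 3.25%. The share was chosen after the values were seen and was not tested.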

How the data were processed

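The deposited values are whole-number counts per mature miRNA (1978 names) and per tRF (13007 names), made by the authors from small RNA libraries and not normalised. Per the labels' protocols, 140 ng of total RNA per sample (RNA integrity number 8.3 on average over the 48 libraries, range 6.4 to 9.3) went through a ligation-based small RNA kit and was sequenced on a NextSeq 500. The submitters' processing notes name FastQC 0.11.9 and the build GRCm39, and per the file headers tRF column names carry the word flexbar, a read trimmer. Which programs aligned and counted the reads is not given in the sources used here. The tRF annotation describes human tRNA space, so no tRF position is given.

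Groups came from the labels. Counts of the 24 SCG libraries (6 groups of time and treatment, 4 each) were fitted with edgeR 4.0.16 in R 4.3.3: TMM factors, filterByExpr with a minimum count of 10, a sex term, robust quasi-likelihood F-tests, and Benjamini-Hochberg adjustment over all features tested, called at 0.05. The SCG minus TG difference used 47 libraries, without SCG 7 d LPS replicate 2. CPM use TMM-scaled library sizes. The SE of an edgeR log2 fold change was taken as its absolute value divided by the square root of its F statistic. Single values per library were compared with exact two-sided permutation tests. The counts of replicates differed by more than sampling noise in all 12 pairs (chi-square per degree of freedom 39.4 to 1965), so each library counts as 1 sample. Each of the 8 libraries had 1774047 or more miRNA counts and 74289 or more tRF counts. The fits were tested on simulated data: with all 24 libraries 81% of miRNAs changed 4-fold and 43.3% of those changed 2-fold were recovered for SCG 7 d LPS against saline, and 62.4% and 13.3% of tRFs. Of 496 simulated miRNAs tested, 100 were changed 4-fold and 97 were changed 2-fold (93 and 90 of 491 tRFs). Adjusted p pass more easily when many features change, so recovery where few change was not measured. Of 515 tested miRNA names, 445 had a mature sequence in the RefSeq table.

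Alternatives were DESeq2 1.42.0, no filter, other scalings, no sex term, a fit without robust estimation, the 7 d libraries alone and leaving out each library; leaving out LPS replicate 2 and saline replicate 1 together was added after seeing the data. Named miRNAs were those called, the 10 of smallest p in each direction without LPS replicate 2, up to 4 most abundant arms of each list, and those with the highest or lowest ratio of LPS replicate 2 to the other libraries; tRFs followed the same rule by calls, smallest p and abundance, the text gives a selection of each, and 11 list arms were added after their values were seen. The libraries compared and the 20 miRNA lists were chosen with earlier results of these data known. Some tRFs are not reported here.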

Additional observations from a re-analysis of the deposited data

Results flagged for a closer look

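Of 136 groups of 4 libraries checked for a library far from the other 3 (Dixon's test at the 95% level), 20 held one, 12 in LPS and 8 in saline. Chance would flag about 1 in 20 groups only if these were independent and not picked by their values. The groups share the same 8 libraries, and many single miRNAs were picked by their p without LPS replicate 2. That library was also known beforehand to stand apart, so the count describes the libraries and is not a test. In LPS, each of the 12 was replicate 2, whose list sums stood apart at 11354 CPM (leukocyte), 40458 CPM (muscle), 13022 CPM (epithelium), 17521 CPM (miR-17-92 and paralogs), 19937 CPM (miR-181 family), 14912 CPM (Hox cluster) and 3348.3 CPM (Dlk1-Dio3 cluster). The single miRNAs at which it stood apart were miR-423-5p (996.18 CPM), miR-150-3p (54.641 CPM), miR-760-3p (4.8322 CPM), miR-124-3p (4.0888 CPM) and miR-382-5p (86.236 CPM).

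In saline, replicate 1 stood apart in the sensory neuron list (7147 CPM), the exocrine gland list (69.238 CPM), miR-219a-2-3p (174.98 CPM), miR-124-3p (228.28 CPM), and as the lowest in miR-145a-5p (86.023 CPM) and miR-155-5p (14.687 CPM). Saline replicate 4 stood apart in miR-8103 (5.0843 CPM) and in the share of tRF counts in the 3′-half class (0.3715%).

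In the fit without SCG 7 d LPS replicate 2, 5 miRNAs were flagged for an LPS effect that differed between SCG and TG at 7 d. By the test of the difference itself these were miR-129-2-3p (2.6451 on the log2 scale, SCG minus TG), miR-3102-3p (1.9258), miR-132-3p (1.9071), miR-342-3p (1.1766) and miR-423-5p (-1.0038). Only miRNAs that were called, of smallest p or added after their values were seen were checked, whereas 17 of 590 passed (2.88%). Many of those checked were picked by their SCG values, which are part of the difference, so the 5 are not a fair sample of the 17. The calls of miR-132-3p and miR-423-5p were lost without TG 7 d saline replicate 1, 2 or 4. That of miR-3102-3p was lost without replicate 1, 2, 3 or 4.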

How the results depend on the processing

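The rise of miR-146a-5p, miR-155-5p and miR-21a-5p kept its direction under each alternative and lost its call only in the fit of the 8 libraries of 7 d alone; with the 7 without LPS replicate 2, that fit called 3. The number of miRNAs called was 3 with all 8 libraries, against 52 by DESeq2, 69 with no filter on low counts, 0 with the 7 d libraries alone (22 of 449 at an unadjusted p under 0.05) and 7 with no sex term. Leaving out 1 library gave 3 to 32. Without LPS replicate 2 the number was 31 with no filter and 4 by DESeq2, and 3 whichever further library was left out. With saline replicate 1 left out as well it was 3 of 523. For tRFs, 0 were called in each setting. For 7 d minus 24 h, no filter gave 23 calls with all libraries and 10 without LPS replicate 2. For SCG minus TG, 17 became 44 with no filter, miR-21a-5p among the 44, and 2 to 29 without 1 TG 7 d saline library. The cause of these shifts was not tested.

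Some values changed sign. miR-150-3p was at -1.795 with both libraries out and ran from -1.799 to 2.238 when 1 library was left out, miR-376c-3p from -0.1165 to 0.5617 and tRF-33-6SXMSL73VL4YDN from -0.02814 to 0.5121. In the 7 libraries without LPS replicate 2, miR-132-5p was at 0.05347 with no sex term and ran from -0.1559 to 0.103, miR-212-5p from -0.2975 to 0.101 and miR-124-3p from -0.1144 to 0.1252 (0.114 with both libraries out). In SCG minus TG, miR-146b-5p ran from -0.0235 to 0.1367 and miR-760-3p from -0.5009 to 0.3925. Differences in tRF class shares (percentage points, LPS minus saline) ran from -0.7332 to 0.06407 for internal tRFs, -0.5815 to 0.5406 for 3′-tRFs and -0.08066 to 0.03805 for the 3′-half class, and without LPS replicate 2 from -0.9147 to 0.05251, -1.287 to 0.3957 and -0.06446 to 0.06826. The difference in tRF counts per 100 miRNA counts without LPS replicate 2 ran from -1.784 to 4.335.

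No paired analysis was possible because replicate numbers follow accession order and the labels tie no LPS library to a saline library. With 4 libraries a group and the fitted spread, many changes of 2-fold would be missed (43.3% of those simulated were recovered for miRNAs). Most would be missed for tRFs (13.3% recovered, and 6.59% without LPS replicate 2). The simulation gave all libraries the same spread and held none far from the rest, so recovery with such a library was not measured.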
